A study of Mus musculus with 12 samples.

Results

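Type I interferon-stimulated genes are described here as a set of 37 genes, listed by symbol and found among the 22364 symbols that stand in all 3 of the study's FPKM tables (fragment counts scaled for transcript length and library size). The list holds 5 sensors of foreign or misplaced nucleic acid, 20 antiviral effectors and 12 regulators of the response. Their levels were compared in mouse bone marrow cells that carried a leukemia fusion gene together with either PRDM16 or a mutant form, written PRDM16mut in the labels. PRDM16 is a transcriptional regulator of the PR domain family, and the sources used here do not give the change that makes the mutant. There are 12 libraries in 6 groups of 2. In the MLL-AF9 cotransduction, lineage-negative (Lin-) bone marrow cells of C57BL/6 mice received the MLL-AF9 fusion with PRDM16 or with PRDM16mut. The E2A-HLF cotransduction used Lin- cells of the same strain, given the E2A-HLF fusion and either form. Both sets were collected after 10 days of selection with G418 and puromycin. In the stable cells, bone marrow cells that already carried MLL-AF9, named as leukemia cells in the study's design, received either form and were selected with puromycin. This selection also lasted 10 days. The medium was the same for all groups: IMDM, 15% FBS, and 10 ng/ml of each of the cytokines SCF, IL6 and IL3. Every group thus carries a fusion gene and an introduced form of PRDM16, and no group without either form is analysed here.

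Type I interferons signal through the receptor pair IFNAR1 and IFNAR2 and the kinases JAK1 and TYK2. Through these, STAT2 is activated and joins IRF9 in a complex that binds interferon-stimulated response elements in promoters. The genes so induced include RNA sensors that start further interferon production, proteins that block steps of viral replication, and regulators such as the ubiquitin-like modifier ISG15 with its conjugating and removing enzymes. In blood-forming tissue the response is known to alter stem cell cycling and myeloid output, and many of its genes are also expressed at a basal level without added interferon.

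The letters of the interferon response element stood close to the start of part of the set. RefSeq promoters (build GRCm38.p6) were found for 28 of the 37 genes, and the 250 bases before each start were searched on both strands for the core of the response element, GAAA followed by any 2 bases and GAAA. The core was present in 7 of the 28 (25%), against 936 of all 27025 genes in the promoter table (3.46%). These were 5 of 16 effectors, 2 of 9 regulators and 0 of 3 sensors. The shorter STAT site TTCNNNGAA, searched the same way, was in 4 of 28 (14.3%), against 8.13% of all genes. The matching stretches are printed because they are what these promoters share, read 5′ to 3′ in the direction of the gene with 20 bases on either side, with the core or its reverse complement in capitals. A match describes letters in the window and is not a measured binding site.
Ifit1 at chr19:34640765-34640833 on the plus strand: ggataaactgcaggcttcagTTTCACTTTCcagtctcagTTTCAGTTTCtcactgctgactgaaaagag
Ifit3 at chr19:34583353-34583436 on the plus strand: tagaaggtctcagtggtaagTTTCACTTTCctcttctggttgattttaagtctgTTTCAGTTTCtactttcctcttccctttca
Rsad2 at chr12:26456543-26456592 on the minus strand: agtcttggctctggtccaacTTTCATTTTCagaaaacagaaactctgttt
Bst2 at chr8:71537567-71537622 on the minus strand: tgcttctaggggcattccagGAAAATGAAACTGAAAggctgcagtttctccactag
Cxcl10 at chr5:92349073-92349122 on the minus strand: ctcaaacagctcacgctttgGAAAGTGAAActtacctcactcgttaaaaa
Stat2 at chr10:128270256-128270305 on the plus strand: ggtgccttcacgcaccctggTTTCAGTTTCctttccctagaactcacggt
Isg15 at chr4:156200855-156200916 on the minus strand: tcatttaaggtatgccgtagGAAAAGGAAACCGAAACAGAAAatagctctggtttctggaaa
The upstream windows of Ifit1, Ifit3 and Bst2 held 2 copies of the core and that of Isg15 held 3, overlapping one another in Bst2 and Isg15. As described below, Ifit1, Ifit3, Rsad2, Bst2, Stat2 and Isg15 moved in opposite directions in the cotransductions, whereas Cxcl10 did not. The same opposite calls were made for 26 of the 35 genes of the set tested in both, these included.

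Each library's FPKM summed to between 570872 and 683269, and the 3 tables were normalised separately, so levels are compared within a table and only set side by side across tables. Total depth is unknown because the tables hold no counts. The Prdm16 gene read 83.9 and 119 FPKM where PRDM16 was introduced against 29.5 and 30.1 for PRDM16mut in the MLL-AF9 cotransduction, 49.2 and 56.5 against 56.6 and 43.5 in the E2A-HLF cotransduction, and 77.9 and 80.0 against 89.1 and 94.6 in the stable cells; the tables do not separate the introduced from the cell's own copy, so this does not check the mutant label. The Prdm16 difference in the MLL-AF9 cotransduction was called (1.71 on the log2 scale), and its part in the results there was not tested. The pan-leukocyte gene Ptprc lay between 43.5 and 61.3 FPKM in all 12 libraries. Kit, a progenitor marker, was low where MLL-AF9 was cotransduced with PRDM16 (5.29 and 6.07 FPKM against 46.8 and 47.5), and Flt3 did not exceed 0.283 FPKM in either MLL-AF9 table. Of 6 genes listed as markers of the cells named in the labels, 4 were tested in the MLL-AF9 cotransduction. All 4 were called lower with PRDM16, beside 34% of all genes. In the E2A-HLF cotransduction 5 were tested, with 2 called lower and 1 higher, beside 21.1% and 22.7% of all genes. Their log2 fold changes there ran from -2.51 to 0.65. In the stable cells 0 of 4 were called. The part of these markers in the results was not tested. Both PRDM16 libraries of the MLL-AF9 cotransduction list the ribosomal transcript Rn45s at 0, which measured 941 to 1554 FPKM in the other 10 libraries. The groups of that experiment may have been prepared or counted differently. Such a difference cannot be told apart from the form of PRDM16 there, and its part in the results was not tested. The labels do not say whether the 2 libraries of a group came from separate cultures, so p-values reflect only library-to-library spread, possibly technical. With 2 against 2, an exact permutation test of a single gene cannot go below 0.333, and the p-values given are those of limma, which pools the spread over genes.

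**Figure D1:**
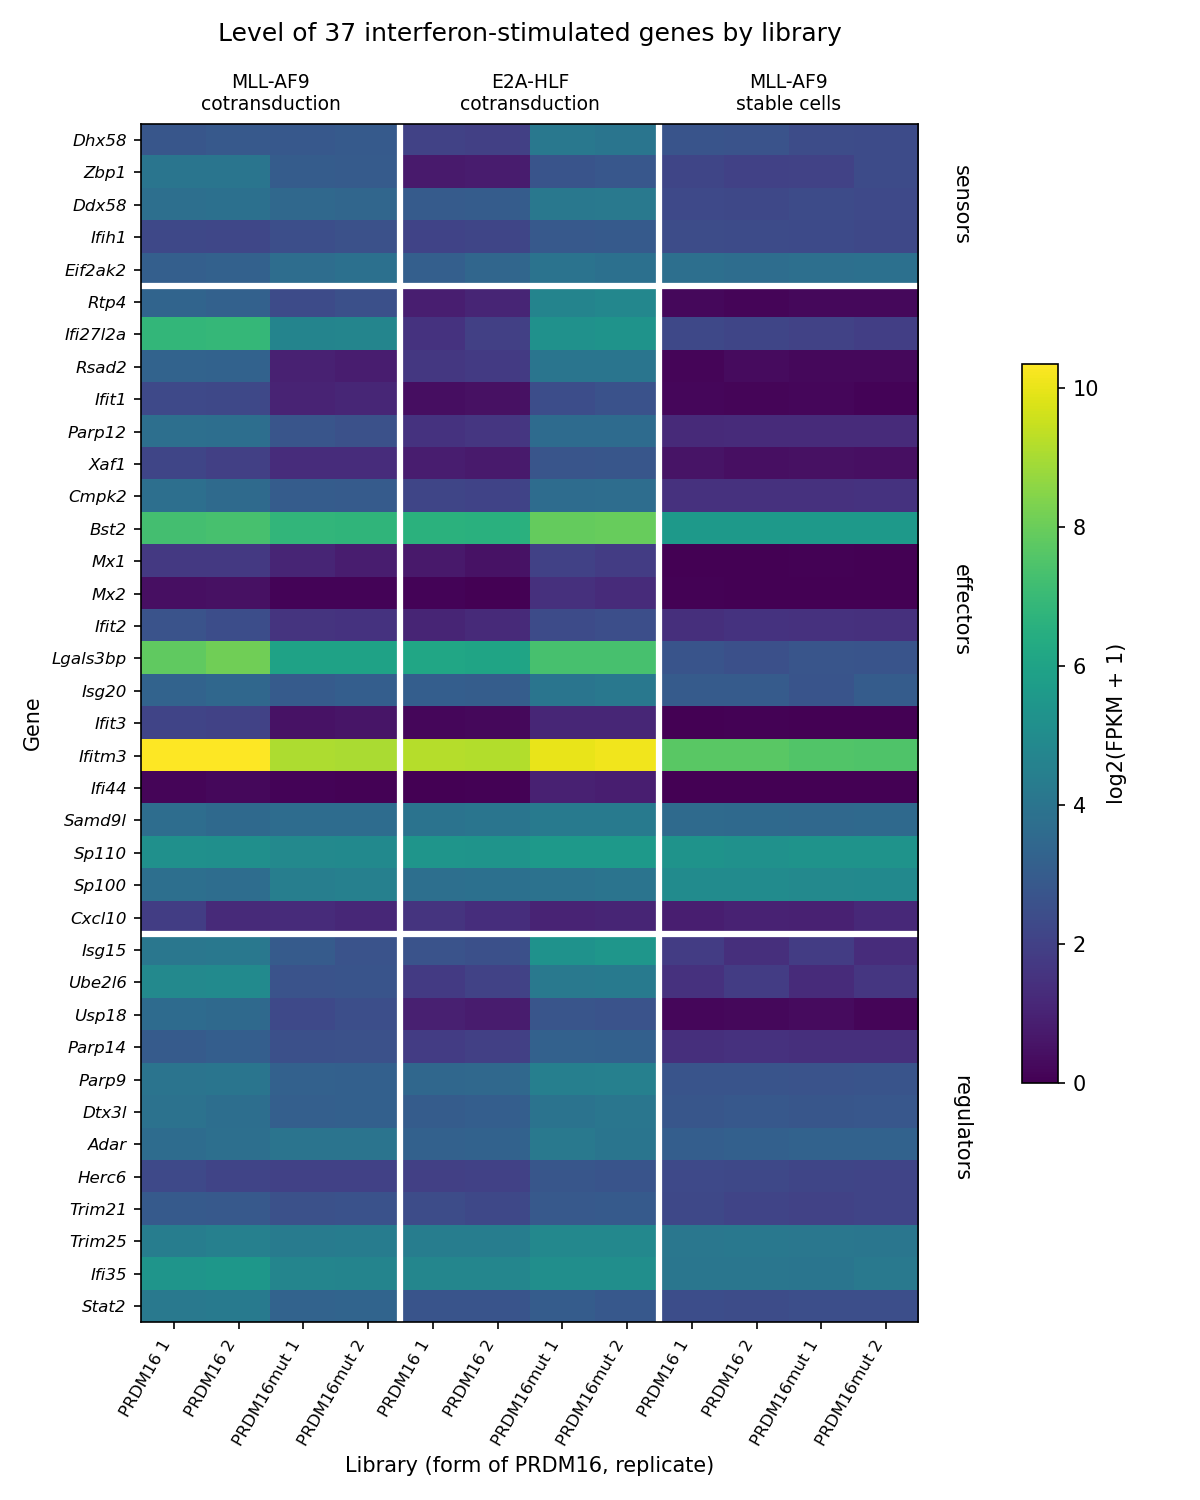
Level of each of the 37 genes (rows, grouped by role) in each of the 12 libraries (columns), as log2(FPKM + 1) on a colour scale from dark (low) to bright (high). The columns of the MLL-AF9 cotransduction are brighter with PRDM16, those of the E2A-HLF cotransduction are brighter with PRDM16mut, and the 4 stable-cell columns look alike; tables were normalised separately.

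In the E2A-HLF cotransduction nearly the whole set was lower with PRDM16 than with PRDM16mut. Genes were tested where 2 or more of the 4 libraries reached 1 FPKM. Of the 36 that passed, 34 were called lower, 1 was called higher and 1 was not called (limma, Benjamini-Hochberg adjusted p under 0.05 over all genes tested). Of all 11010 genes tested in that table, 43.8% were called, with 21.1% lower and 22.7% higher. At least a 2-fold fall was seen for 21 of the 36 genes, against 2.81% of all genes, and at least a 2-fold rise for 0, against 2.94%. Zbp1, Ifit1, Ifit3, Mx1, Mx2, Xaf1 and Usp18 had both PRDM16 libraries under 1 FPKM and passed the filter through the PRDM16mut group alone. Only a fall could be called for these genes, and all but Ifit3 count among the 2-fold falls. The median log2 fold change was -1.20, beside 0.01 over all genes tested. By role, all 5 sensors fell (median -1.16), as did 17 of 19 effectors (median -1.31) and all 12 regulators (median -0.91). The FPKM of the 37 genes summed to 953 and 932 with PRDM16 and to 1912 and 2009.6 with PRDM16mut, which is 0.155% and 0.158% of a library against 0.331% and 0.334%. Ifitm3 made up 60.6% of the sum with PRDM16 and 55.1% with PRDM16mut. Without it the sums were 373 and 369 against 875 and 888. The FPKM of the median gene was 3.22 and 3.26 against 14.3 and 14.6. Of the 36 genes, 35 had both PRDM16 libraries below both PRDM16mut libraries and 1 had them above. Groups did not overlap for 73.7% of all genes tested, so a lack of overlap in a single gene below was common in this table. Values are given below with PRDM16 first and PRDM16mut second. In bulk samples such as these, fewer expressing cells and less RNA per cell cannot be told apart.

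Rtp4, a chaperone of cell-surface receptors that interferon induces, had the largest log2 change of the set, with 0.830 and 1.08 FPKM where PRDM16 was introduced against 24.3 and 26.8 for PRDM16mut. The log2 fold change, taken on log2(FPKM + 1) and so understated for low genes, was -3.76 ± 0.0851 (SE, adjusted p = 2.62e-06). Ifi27l2a, a small hydrophobic interferon-induced protein, measured 1.88 and 2.9 FPKM against 36.8 and 38.9, a change of -3.53 ± 0.138 (SE, adjusted p = 1.48e-05). For both genes each PRDM16 library lay far below each PRDM16mut library, with mean FPKM 26.7 and 15.8 times higher in the mutant group. Rsad2, the enzyme viperin that makes a chain-terminating nucleotide, measured 2.18 and 2.42 FPKM against 15.1 and 15.3 (-2.29 ± 0.0603 SE, adjusted p = 3.75e-06). Its genomic neighbour Cmpk2, a nucleotide kinase, measured 3.49 and 3.26 FPKM against 11.5 and 11.8 (-1.53), and no other protein-coding gene lies between them in RefSeq's gene order. The groups of both neighbours were apart, and the fall of Rsad2 was the larger.

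All 4 listed genes of the ISG15 system fell. Isg15, the ubiquitin-like modifier, measured 5.32 and 4.83 FPKM against 38.0 and 42.2 (-2.76 ± 0.0707 SE, adjusted p = 3.44e-06). Ube2l6, its conjugating enzyme, measured 2.35 and 3.09 FPKM against 17.2 and 18.3 (-2.34 ± 0.101 SE, adjusted p = 2.30e-05). Usp18, which removes ISG15 and restrains the interferon receptor, measured 0.883 and 0.708 FPKM against 5.57 and 5.22, a log2 fold change of -1.83. Every mutant library was above every PRDM16 library in each of these genes. Herc6, which serves as an ISG15 ligase in mice, fell by less, with 2.94 ± 0.0325 against 5.61 ± 0.155 FPKM (SD, n = 2) and a log2 fold change of -0.75.

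Among the sensors, Dhx58 (LGP2), which tunes signalling by its relatives, measured 3.17 and 2.93 FPKM against 16.6 and 15.5 (-2.07). Zbp1, which binds Z-form nucleic acid and can trigger cell death, measured 0.696 and 0.746 FPKM against 5.36 and 6.01 (-1.96). Ddx58 (RIG-I), a sensor of viral RNA ends, measured 6.89 and 7.16 FPKM against 16.6 and 17.2 (-1.16). In all of them the groups were apart; Zbp1 with PRDM16 was under 1 FPKM, whereas Ddx58 was not. The smaller falls were those of Ifih1 (MDA5), which senses long double-stranded RNA, at -0.80, and of Eif2ak2 (PKR), which halts translation on double-stranded RNA, at -0.61.

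The Ifit genes, whose proteins bind viral RNA, were low with PRDM16. Ifit1 measured 0.292 and 0.370 FPKM against 4.47 and 5.08 (-2.12). Ifit2 measured 1.11 and 1.32 FPKM against 4.21 and 4.53 (-1.28). Ifit3 measured 0.133 and 0.158 FPKM against 1.19 and 1.16 (-0.92). In none of them did the groups overlap. Ifit1 and Ifit3 have close copies in the mouse genome, so the authors' assignment of reads among them is uncertain: the copy listed as Gm14446, which RefSeq names Ifit1bl1, measured 0.294 and 0.261 FPKM against 2.20 and 2.44, and the Ifit3 copy I830012O16Rik measured 0.0238 and 0.0130 FPKM against 0.383 and 0.437. Both of these lay lower with PRDM16, whereas another Ifit1 copy, 2010002M12Rik, lay higher, at 0.0621 and 0.0678 FPKM against 0.0161 and 0.0154. Mx1, a dynamin-like GTPase of which the C57BL/6 strain carries a defective allele, measured 0.631 and 0.419 FPKM against 3.04 and 2.53 (-1.31). Its relative Mx2 measured 0.0775 and 0.0106 FPKM against 1.74 and 1.43 (-1.31), and this was the only table in which it could be tested. Ifi44 did not pass the filter and was not tested, at 0.0207 and 0.0563 FPKM against 0.921 and 0.829.

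The effectors with the highest FPKM fell too. Ifitm3, which hinders viral entry at membranes and had the highest FPKM of the set in every library, measured 580.2 and 562 FPKM against 1037 and 1122 (-0.92). Bst2 (tetherin), which holds budding virions at the cell surface, measured 96.7 and 92.9 FPKM against 237 and 242 (-1.33). Lgals3bp, a secreted galectin-binding glycoprotein, measured 68.3 and 64.8 FPKM against 161 and 159 (-1.25). None of the 3 had overlapping groups, and each was between 1.89 and 2.53 times higher in the mutant mean. Parp12, a mono-ADP-ribosyltransferase, measured 1.89 and 2.08 FPKM against 11.3 and 11.4 (-2.04). Xaf1, a cell-death factor that antagonises XIAP, measured 0.791 and 0.686 FPKM against 5.68 and 5.76 (-1.95). Isg20, an exoribonuclease, measured 7.64 and 7.28 FPKM against 15.3 and 16.6 (-1.0). The smallest called falls among effectors were those of Samd9l, a growth-restraining factor of blood cells (-0.28), and of Sp110, a nuclear body protein (-0.20, from 46.7 and 46.4 to 40.8 and 40.2 FPKM). Sp110 may share reads with its relative Sp140, which was called the other way (8.67 and 7.78 FPKM against 6.08 and 6.37, 0.35); their mean sum was 48.7 against 52.8 FPKM.

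Of the other regulators, the PARP9 and DTX3L partners, which act as one ADP-ribosylating ubiquitin ligase, both fell. Parp9 measured 9.96 and 10.1 FPKM against 20.8 and 21.6 (-1.01). Dtx3l measured 7.06 and 7.64 FPKM against 14.5 and 15.7 (-0.95). Parp14, the next gene beside Dtx3l in RefSeq's order, measured 2.56 and 2.93 FPKM against 8.26 and 7.94 (-1.28). Such neighbours share a locus and are not independent of each other. Adar, which edits double-stranded RNA, averaged 8.40 ± 0.210 against 16.2 ± 1.10 FPKM (SD, n = 2) and changed by -0.87. Trim21, a cytosolic antibody receptor, measured 4.27 and 3.70 FPKM against 6.49 and 6.64 (-0.60), and Trim25, a ubiquitin ligase of the RIG-I pathway, changed by -0.44. Ifi35, a leucine zipper protein, measured 25.9 and 25.7 FPKM against 33.4 and 34.1 (-0.37), and Stat2, the STAT particular to interferon signalling, measured 5.48 and 5.38 FPKM against 7.11 and 6.28 (-0.26 ± 0.0691 SE, adjusted p = 0.0279). The call of Stat2 did not hold when either PRDM16 library or the first PRDM16mut library was left out (adjusted p = 0.0596, 0.0803 and 0.128) or without the filter on low values (0.0726), and that of Sp110 did not hold without the second PRDM16 library (adjusted p = 0.0628).

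Cxcl10, a chemokine that draws activated T cells, was the 1 gene called higher, with 1.98 and 1.59 FPKM against 1.06 and 1.09 (0.42 ± 0.0873 SE, adjusted p = 0.0116). Sp100, another nuclear body protein, measured 12.6 and 13.1 FPKM against 13.8 and 14.6 and was not called (-0.14, 95% interval -0.27 to -0.01, adjusted p = 0.0807).

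Marker genes of other cell types moved with these groups, and their part in the results was not tested. The counts below stand beside 22.7% of all genes tested called higher and 21.1% called lower. With PRDM16, 7 of 8 tested neutrophil genes were called higher (summed FPKM 1949 and 1863 against 673 and 688), as were 7 of 9 monocyte and macrophage genes, with 2 lower (3616 and 3399 against 1712 and 1852). Of mast cell and basophil genes 4 of 6 were called higher and 1 lower, and of erythroid genes 3 of 7 higher and 1 lower. The erythroid list nevertheless summed to less with PRDM16 (436 and 264 against 699 and 480), with libraries of a group far apart. Plasmacytoid dendritic cells are known as strong producers of interferon. Of their 9 markers 2 passed the filter, 1 called higher and 1 lower, and the summed FPKM was 9.96 and 9.71 against 15.2 and 14.8. Of this list, Siglech, Ly6d and Klk1 were at or near 0 in all 12 libraries of the study, at most 0.0464 FPKM, whereas other members were not. Summed markers of T and NK cells did not exceed 0.304 FPKM. Of 6 B cell markers 1 was tested and was called lower (-1.04, sum of the list 4.76 and 4.29 against 10.5 and 10.1). Of 6 stromal markers 1 was tested and was called higher (0.75, sum of the list 147 and 149 against 86.1 and 88.6).

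**Figure D2:**
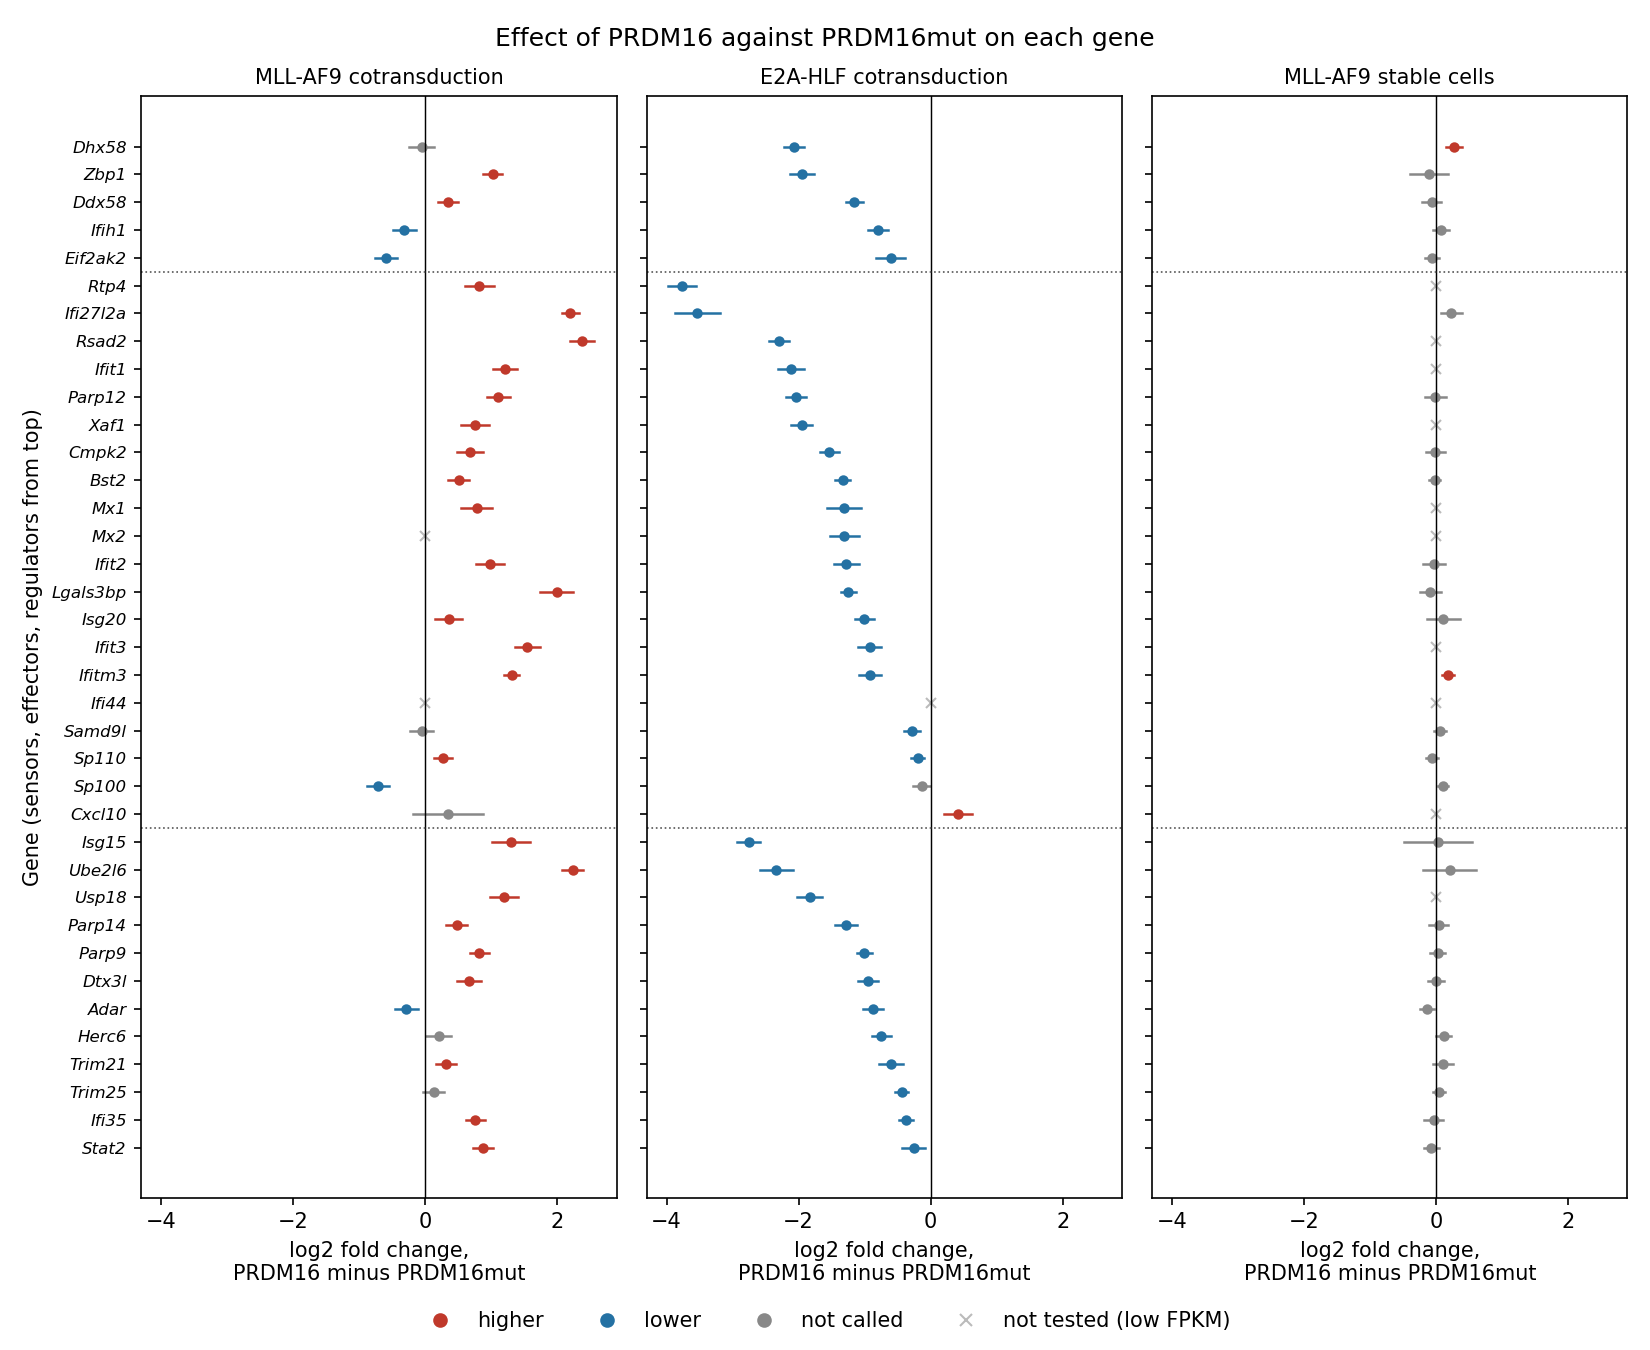
Log2 fold change of each gene, PRDM16 minus PRDM16mut on log2(FPKM + 1), with its 95% confidence interval from limma, in the 3 experiments; red points were called higher, blue points lower, grey points were not called, and a grey cross at 0 marks a gene that was not tested. In the E2A-HLF panel 34 of 36 genes are blue, in the MLL-AF9 cotransduction 26 of 35 are red, and in the stable cells 2 of 27 are called.

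In the MLL-AF9 cotransduction most of the same genes were higher with PRDM16. Of 35 genes tested, 26 were called higher and 4 lower, and 5 were not called. This table had widespread change: 69.5% of its 11071 genes were called, 35.6% higher and 34% lower. As given above, its groups were also split in Rn45s and may have been prepared or counted differently. A rise of at least 2-fold was seen for 11 of the 35 genes, against 8.55% of all genes tested, and a fall of that size for 0, against 6.98%. Rsad2 and Ifit3, both among these rises, had both PRDM16mut libraries under 1 FPKM. They passed the filter through the PRDM16 group alone, so only a rise could be called for them. The median log2 fold change was 0.75, beside 0.01 over all genes. Effectors (15 higher and 1 lower of 18, median 0.79) and regulators (9 higher and 1 lower of 12, median 0.71) leaned upward, whereas the sensors were split, with 2 higher and 2 lower of 5 and a median of -0.06. The summed FPKM was 2157 and 2221 with PRDM16 and 975 and 962 with PRDM16mut, or 0.316% and 0.330% of a library against 0.154% in both mutant libraries. Ifitm3 made up 59.4% of the sum with PRDM16 and 54.3% with PRDM16mut. Without it the sums were 859 and 919 against 443 and 442. The median gene measured 11.5 and 10.7 against 6.91 and 6.71 FPKM. Both PRDM16 libraries lay above both mutant libraries for 28 of the 35 genes and below them for 4. Over all genes tested 86.3% did not overlap, so a lack of overlap in a single gene below was common in this table. Mx2 did not pass the filter, at 0.337 and 0.376 FPKM against 0.0847 and 0.0870. Neither did Ifi44, at 0.0920 and 0.182 FPKM against 0.0580 and 0.0298.

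Rsad2 led the rises with 8.72 and 8.56 FPKM where PRDM16 was introduced against 0.951 and 0.781 for PRDM16mut, a log2 fold change of 2.37 ± 0.0711 (SE, adjusted p = 1.01e-05). Cmpk2 beside it measured 12.6 and 11.1 FPKM against 7.07 and 6.92 (0.68). Both were higher in each PRDM16 library, but the mean ratio was 9.98 for Rsad2 and 1.69 for Cmpk2. Ube2l6 measured 27.9 and 29.9 FPKM against 5.33 and 5.42 (2.23 ± 0.0617 SE, adjusted p = 8.25e-06). Isg15 measured 16.2 and 16.5 FPKM against 6.93 and 5.35 (1.29 ± 0.113 SE, adjusted p = 0.000323). Usp18 measured 11.1 and 10.6 FPKM against 3.84 and 4.54 (1.19). The conjugating enzyme had the larger log2 change here and the modifier itself in the E2A-HLF cells; the order of the 2 genes was not tested. Herc6 was not called, at 3.87 and 3.39 FPKM against 3.02 and 3.02 (0.20, adjusted p = 0.0556); without the second PRDM16 library it was called (0.28, adjusted p = 0.0118).

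Ifi27l2a measured 116 and 117 FPKM against 24.2 and 25.1 (2.20 ± 0.0508 SE, adjusted p = 5.08e-06). Lgals3bp measured 224 and 271 FPKM against 61.5 and 61.3 (1.99 ± 0.0970 SE, adjusted p = 4.46e-05). Ifitm3 measured 1298 and 1302 FPKM against 531 and 519.8 (1.31). All 3 were abundant, and their groups did not overlap. Bst2 rose by less, at 149.7 and 162 FPKM against 112 and 107 (0.50). Ifit3 measured 3.40 and 3.07 FPKM against 0.406 and 0.50 (1.54 ± 0.0738 SE, adjusted p = 4.18e-05). Ifit1 measured 3.93 and 3.72 FPKM against 1.02 and 1.18 (1.2). Ifit2 measured 5.18 and 4.38 FPKM against 1.97 and 1.89 (0.98). The Ifit copies were split: Gm14446 measured 3.86 and 3.93 FPKM against 0.279 and 0.254 and I830012O16Rik 0.647 and 0.691 FPKM against 0.103 and 0.0588, but 2010002M12Rik 0.124 and 0.0915 FPKM against 0.770 and 0.798. Of these only Gm14446 passed the filter. Rtp4, with the largest log2 change in the E2A-HLF cells, measured 8.97 and 8.20 FPKM against 4.13 and 4.80 here (0.81).

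Further down, Parp12 measured 12.6 and 12.5 FPKM against 5.59 and 4.99 (1.11). Mx1 measured 2.31 and 2.28 FPKM against 1.09 and 0.774 (0.78). Xaf1 measured 3.49 and 2.95 FPKM against 1.51 and 1.5 (0.75). Parp12 had the largest change of these, although the FPKM ratio was slightly higher for Mx1. Stat2 measured 17.1 and 17.5 FPKM against 8.75 and 9.21 (0.87). Parp9 measured 14.8 and 15.1 FPKM against 8.17 and 7.98 (0.81). Dtx3l measured 13.9 and 12.3 FPKM against 7.89 and 7.92 (0.66). All 3 were higher in both PRDM16 libraries. Parp14 measured 6.93 and 7.43 FPKM against 4.84 and 4.96 (0.47). Ifi35 measured 41.3 and 43.4 FPKM against 25.1 and 24.1 (0.76). Among these genes, none with overlapping groups, mean ratios ran from 1.47 for Parp14 to 2.46 for Mx1. Outside the sensors, the smallest called rises were those of Isg20 (8.83 and 10.0 FPKM against 6.91 and 7.44, 0.35), Trim21 (6.53 and 6.31 FPKM against 4.90 and 5.03, 0.31) and Sp110 (35.4 and 34.4 FPKM against 28.4 and 29.4, 0.26). These rises lost their call without either PRDM16mut library, and that of Sp110 also when the libraries were rescaled to equal totals (adjusted p = 0.0528). Sp140 fell here (10.4 and 9.82 FPKM against 18.7 and 18.6, -0.82), and the mean sum of Sp110 and Sp140 was 45.0 against 47.5 FPKM, the opposite direction to Sp110 alone.

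The sensors did not move together. Zbp1 measured 15.3 and 15.1 FPKM against 7.10 and 6.87 (1.02). Ddx58 measured 12.9 and 13.2 FPKM against 10.4 and 9.73 (0.35), and both were called higher with PRDM16. Eif2ak2 measured 7.88 and 8.16 FPKM against 12.1 and 13.1 (-0.59). Ifih1 averaged 3.66 ± 0.171 against 4.81 ± 0.223 FPKM (SD, n = 2; -0.32), and both were called lower. Dhx58 overlapped between the groups at 5.89 and 6.47 FPKM against 6.23 and 6.71 (-0.06, 95% interval -0.24 to 0.13), in contrast to its fall in the E2A-HLF cells. The other falls were those of Sp100, from a mean of 21.1 to 12.4 FPKM (-0.72), and of Adar, from 15.0 to 12.1 (-0.29). Without the second PRDM16mut library the calls of Ddx58 and Ifih1 were lost (adjusted p = 0.0805 and 0.0898), and without either mutant library that of Adar was lost (adjusted p = 0.112 and 0.119). Samd9l (-0.06) and Trim25 (0.13) were not called. With the first PRDM16 library left out, Trim25 was called (0.18, adjusted p = 0.0121). Cxcl10 measured 2.65 and 1.36 FPKM against 1.40 and 1.22 and was not called (0.34). Its first PRDM16 library stood above the other 3, and without the second PRDM16 library it was called (0.66, adjusted p = 0.00233).

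Marker genes moved here as well, and their part in the results was not tested. Their counts stand beside 35.6% of all genes tested called higher and 34% called lower. All 10 neutrophil genes were called lower with PRDM16 (summed FPKM 1163 and 1103 against 53688 and 52620), as were all 8 mast cell and basophil genes (117 and 109 against 2168 and 2149). Of 10 monocyte and macrophage genes 7 were called higher and 2 lower (5199 and 5259.6 against 3354 and 3335), and of 6 erythroid genes 5 higher and 1 lower. The erythroid list summed to 912 and 479 against 236 and 173, with the PRDM16 libraries far apart. The 3 tested markers of plasmacytoid dendritic cells, of 9 listed, were called higher (sum of the list 6.09 and 6.47 against 2.41 and 2.06). Among them Tlr9 also stands in the list of sensing adaptors described below. Of 6 stromal markers 1 was tested and was called higher (0.94, sum of the list 61.1 and 64.8 against 32.1 and 32.7). The 1 B cell marker tested was not called (0.01).

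**Figure D3:**
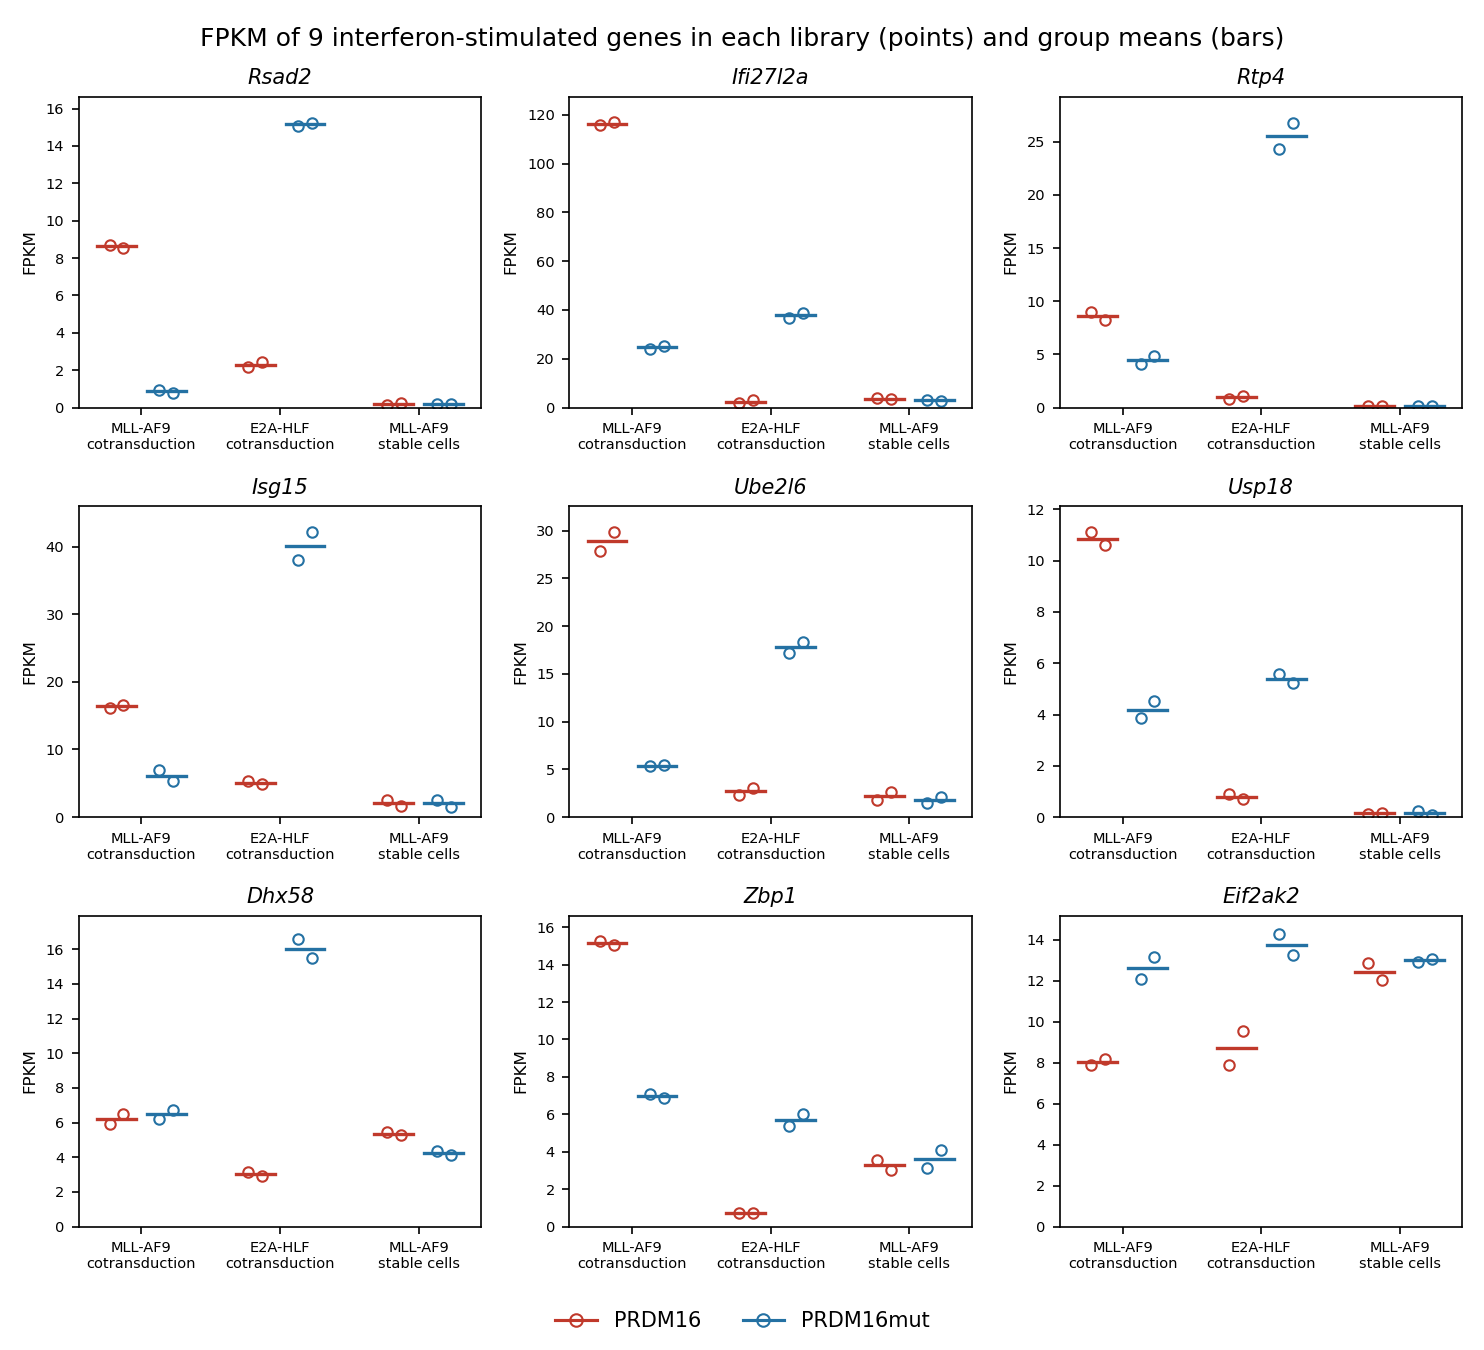
FPKM of 9 interferon-stimulated genes in each library (open points) with the group mean (bars), PRDM16 in red and PRDM16mut in blue, in the 3 experiments; each vertical axis starts at 0. Rsad2, Ifi27l2a, Isg15, Ube2l6 and Usp18 are higher with PRDM16 in the MLL-AF9 cotransduction and lower with it in the E2A-HLF cotransduction, whereas Eif2ak2 is lower with PRDM16 in both.

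In the MLL-AF9 stable cells the set differed little between the forms of PRDM16, and much of it was at low FPKM in every library. Of 27 genes tested 2 were called higher and 0 lower, against 6.36% of the 10580 genes tested (4.2% higher and 2.16% lower), and 0 changed by 2-fold or more, against 0.142% of all genes upward and 0.18% downward; at an unadjusted p under 0.05 in the same limma fit there were 5 higher and 1 lower. Groups did not overlap for 14 of the 27 (10 with PRDM16 above, 4 below), against 60.6% of all genes. The median log2 fold change was 0.02, beside 0.01 over all genes. Dhx58 measured 5.47 and 5.27 FPKM against 4.36 and 4.14 (0.28 ± 0.0480 SE, adjusted p = 0.0379). Ifitm3 measured 206 and 208 FPKM against 187 and 179 (0.18 ± 0.0341 SE, adjusted p = 0.0459). Both calls were small and were lost on leaving out any 1 of the 4 libraries (adjusted p from 0.0913 to 0.190 for Dhx58 and from 0.0586 to 0.234 for Ifitm3). Of the 25 genes not called, 23 had a 95% interval within 0.5 of 0 on the log2 scale. The exceptions were Ube2l6, at 1.79 and 2.58 FPKM against 1.43 and 2.09 (interval -0.20 to 0.61), and Isg15, at 2.53 and 1.64 FPKM against 2.57 and 1.52 (interval -0.49 to 0.54).

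Genes with the largest changes in the cotransductions were not called or not tested here. Ifi27l2a measured 3.78 and 3.47 FPKM against 3.09 and 2.79 (0.23, adjusted p = 0.0911). Lgals3bp measured 5.47 and 4.83 FPKM against 5.62 and 5.41 (-0.08). The 10 genes that did not pass the filter were Ifit1, Ifit3, Mx1, Mx2, Rsad2, Ifi44, Rtp4, Xaf1, Cxcl10 and Usp18. Rsad2 read 0.110 and 0.241 FPKM against 0.164 and 0.176. Rtp4 read 0.162 and 0.108 FPKM against 0.167 and 0.181, and Ifi44 was listed at 0 in both PRDM16 libraries. The summed FPKM of the 37 genes was 454 and 452 with PRDM16 and 428 and 425 with PRDM16mut, or 0.0726% to 0.0764% of a library. Ifitm3 made up 45.8% and 42.8% of these sums, and without it they were 247 and 244 against 241 and 247. Among marker genes, 2 of 9 monocyte and macrophage genes were called higher and 2 of 10 neutrophil genes lower, beside 4.2% and 2.16% of all genes. The plasmacytoid dendritic cell list summed to 10.5 and 10.3 against 9.76 and 9.88. Nuclear body genes were not among the low ones: Sp100 measured 30.8 and 31.1 FPKM against 28.5 and 28.9 and Sp110 38.5 and 36.4 FPKM against 39.1 and 39.0.

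The differences of effect between experiments were tested in a fit of all 12 libraries, on the 9475 genes that passed the filter in all 3 tables, 27 of them interferon-stimulated genes. Between the cotransductions, 26 of the 27 differed, 25 with a lower and 1 with a higher effect in the E2A-HLF cells, against 71.4% of all genes (32.6% lower and 38.8% higher); the median difference was -1.61, beside 0.05 over all genes. Among these 27, Ifi27l2a differed most (-5.73, 95% interval -6.08 to -5.38), followed by Ube2l6 (-4.57, -5.00 to -4.13) and Isg15 (-4.05, -4.59 to -3.50). The higher one was Sp100 (0.58). Eif2ak2 was the 1 gene not called, with a difference of -0.01 and an interval of -0.26 to 0.23: its effect was -0.59 in one cotransduction and -0.61 in the other. In a fit of the 8 cotransduction libraries alone, where 35 of the genes could be tested, 33 differed, against 68.8% of all genes. Rsad2 and Rtp4, not tested in the stable cells, differed there by -4.66 (95% interval -4.88 to -4.45) and -4.58 (-4.88 to -4.27). Both lay between Ifi27l2a and Isg15 and close to Ube2l6 (-4.57, -4.87 to -4.27), and the order of the genes was not tested.

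Set against the stable cells, the effect in the E2A-HLF cells was lower for 25 of 27 genes, against 37% of all genes called (16.9% lower and 20.1% higher). With the 8 libraries of that pair alone it was also 25 of 27, against 41.7%. The differences were widest for Ifi27l2a (-3.77), Isg15 (-2.78) and Ube2l6 (-2.55), and Sp110 and Stat2 were not called. The stable cells differed from the MLL-AF9 cotransduction in 21 of 27 genes, 17 with a lower and 4 with a higher effect in the stable cells, against 64% of all genes (30.6% lower and 33.4% higher). Lgals3bp (-2.07), Ube2l6 (-2.02) and Ifi27l2a (-1.96) differed most. With their 8 libraries alone the count was also 21, against 64.1%. The 4 higher ones were Ifih1, Dhx58, Eif2ak2 and Sp100, of which 3 are sensors.

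Gene by gene, all 26 that rose in the MLL-AF9 cotransduction fell in the E2A-HLF cotransduction. They were 26 of the 35 tested in both, against 11.6% of all genes tested in both; of all 3488 genes that rose in the first, 33.3% fell in the second. These cotransductions share no library. Zbp1, Ifit1, Ifit3, Mx1, Xaf1, Usp18 and Rsad2, which passed the filter in 1 or both tables through 1 group alone, are among the 26. Of the 26, 18 were not called in the stable cells, 7 were not tested there and Ifitm3 was called higher. Dhx58, lower in the E2A-HLF cells and higher in the stable cells, makes 27 genes called in opposite directions in 2 comparisons, of 35 tested in at least 2 tables, against 22.2% of all such genes. Eif2ak2, Ifih1 and Adar fell in both cotransductions, and 0 genes were called in 1 direction in all 3 experiments. Across the 35 genes tested in both cotransductions the log2 fold changes had a Pearson r of -0.58 and a Spearman rho of -0.62, and 28 (80%) were of opposite sign. Over all 9992 genes tested in both, r was -0.35, rho was -0.30 and 60.6% were of opposite sign. Genes are not independent replicates, so these correlations are a description.

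**Figure D4:**
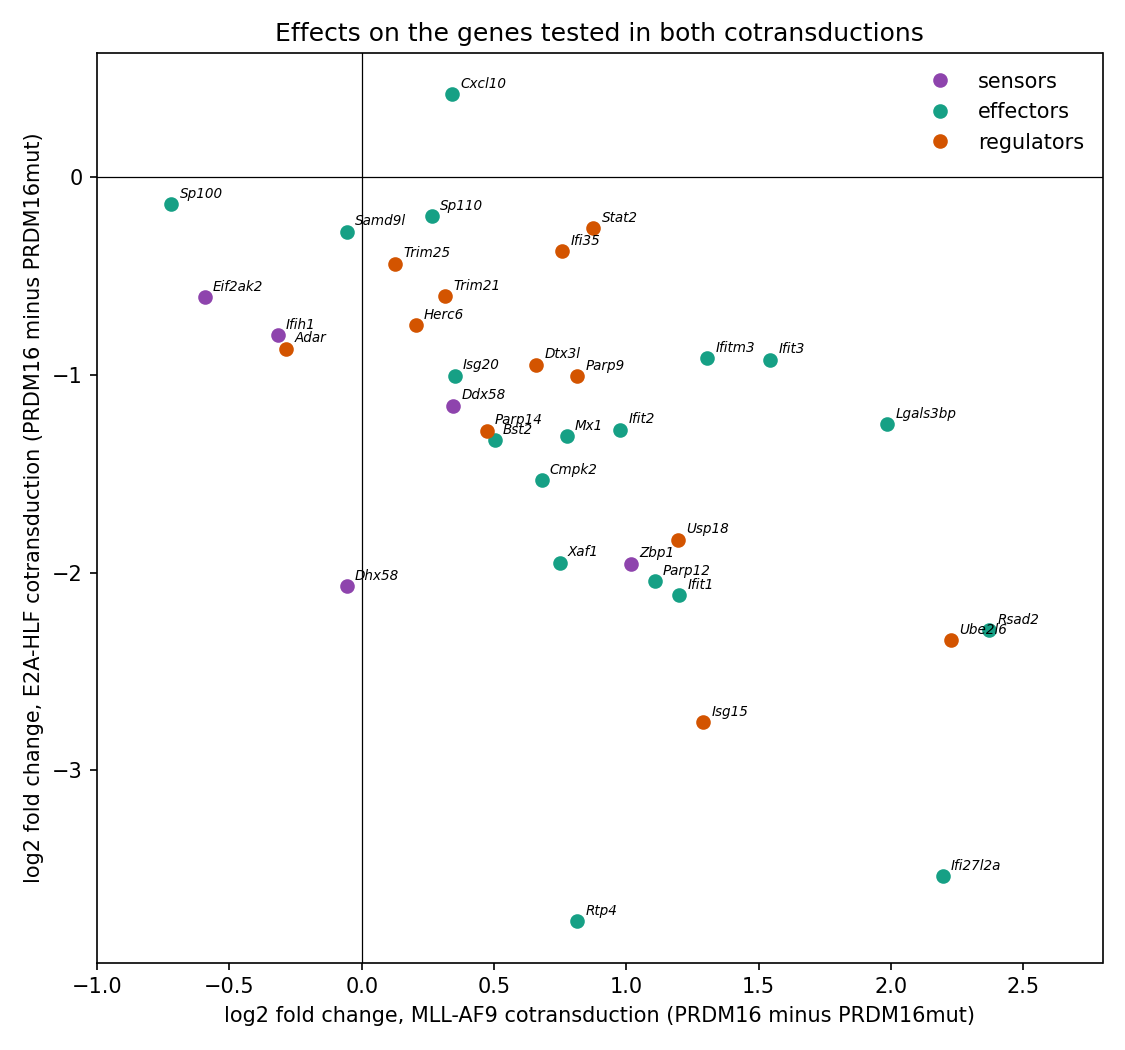
Log2 fold change (PRDM16 minus PRDM16mut) of the 35 genes tested in both cotransductions, MLL-AF9 on the horizontal and E2A-HLF on the vertical axis, coloured by role. Most points lie in the lower right part, higher in one and lower in the other; Eif2ak2, Ifih1, Adar, Sp100, Samd9l and Dhx58 lie on the lower left, and Cxcl10 alone on the upper right.

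Of 57 genes in 5 lists, 33 were tested in the MLL-AF9 cotransduction, 16 of them called higher and 11 lower, beside 35.6% and 34% of all genes. In the E2A-HLF cells 31 were tested, with 10 called higher and 13 lower, beside 22.7% and 21.1% of all genes, and there were 0 higher and 1 lower (Traf3, -0.19) of 32 in the stable cells, beside 4.2% and 2.16%. By list, receptors and kinases were split (of 8 tested, 5 rose and 2 fell with MLL-AF9 and 4 rose and 3 fell with E2A-HLF in the cotransductions), as were feedback inhibitors (of 7 tested, 3 rose and 3 fell in each). Among 11 sensing adaptors and kinases tested with MLL-AF9, 3 rose and 6 fell, and among 9 tested with E2A-HLF 2 rose and 2 fell. No interferon gene passed the filter in any table. Their summed FPKM was at most 0.262 in a library, Ifnb1 reached at most 0.159, and 13, 14 and 16 ligand genes were listed at 0 in all 4 libraries of the MLL-AF9, E2A-HLF and stable tables.

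The type I receptor genes changed by at most 0.36 on the log2 scale. Ifnar1 measured 8.62 and 9.31 FPKM against 10.8 and 10.6 in the E2A-HLF cells (-0.23, called), 11.4 and 11.9 FPKM against 10.6 and 11 in the MLL-AF9 cotransduction (0.10, not called) and 10.9 and 11.5 FPKM against 10.7 and 11.3 in the stable cells (0.02, not called). Ifnar2 changed by -0.13 in the E2A-HLF cells and by 0.36 in the MLL-AF9 cotransduction, and was not called in the stable cells (0.23). Of the type II receptor genes, Ifngr1 fell in the MLL-AF9 cotransduction from a mean of 69.6 to 26.0 FPKM (-1.39) and was called higher in the E2A-HLF cells (0.16), and Ifngr2 was called higher in both (0.42 and 0.67). Il10rb, a subunit of the type III receptor, was called higher in the MLL-AF9 cotransduction (0.29) and lower in the E2A-HLF cells (-0.87).

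Of 7 transcription factor genes, 5 were called higher and 0 lower with MLL-AF9 in the cotransduction, and 1 higher and 5 lower with E2A-HLF. Irf1, Irf2, Irf7 and Irf9 were called in opposite directions (Irf2 0.47 and -0.47), Irf5 was called higher in both, and Irf3 was called in neither (-0.19 and 0.02). Irf7, which amplifies interferon production, measured 2.09 and 2.45 FPKM against 20.9 and 20.2 in the E2A-HLF cells (-2.72 ± 0.0699 SE, adjusted p = 3.44e-06) and 8.32 and 9.01 FPKM against 5.31 and 4.87 in the MLL-AF9 cotransduction (0.67). Irf9, the DNA-binding partner of the STAT complex, measured 6.72 and 6.23 FPKM against 18.5 and 19.2 (-1.41) and 15.2 and 16.9 FPKM against 12.5 and 11.8 (0.37) in the same order. Irf1 measured 13.9 and 13.5 FPKM against 32.5 and 31.7 (-1.17) and 31.7 and 34.0 FPKM against 16 and 16.2 (0.98). Irf1, Irf7 and Irf9 were low with PRDM16 in the E2A-HLF cells and high with it in the MLL-AF9 cotransduction. Their groups did not overlap, as was so for 73.7% and 86.3% of all genes tested in the same order. In the stable cells these 3 factors were not called, with log2 fold changes from 0.01 to 0.05. Beside these and Ifngr1, the changes of at least 2-fold in the lists were in the MLL-AF9 cotransduction: Irf5 (1.09) and Tlr9 (1.27) rose, and Nlrx1, a mitochondrial inhibitor of antiviral signalling (-2.08), the kinase gene Ikbke (-1.45) and Tlr7 (-1.21) fell.

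**Figure D5:**
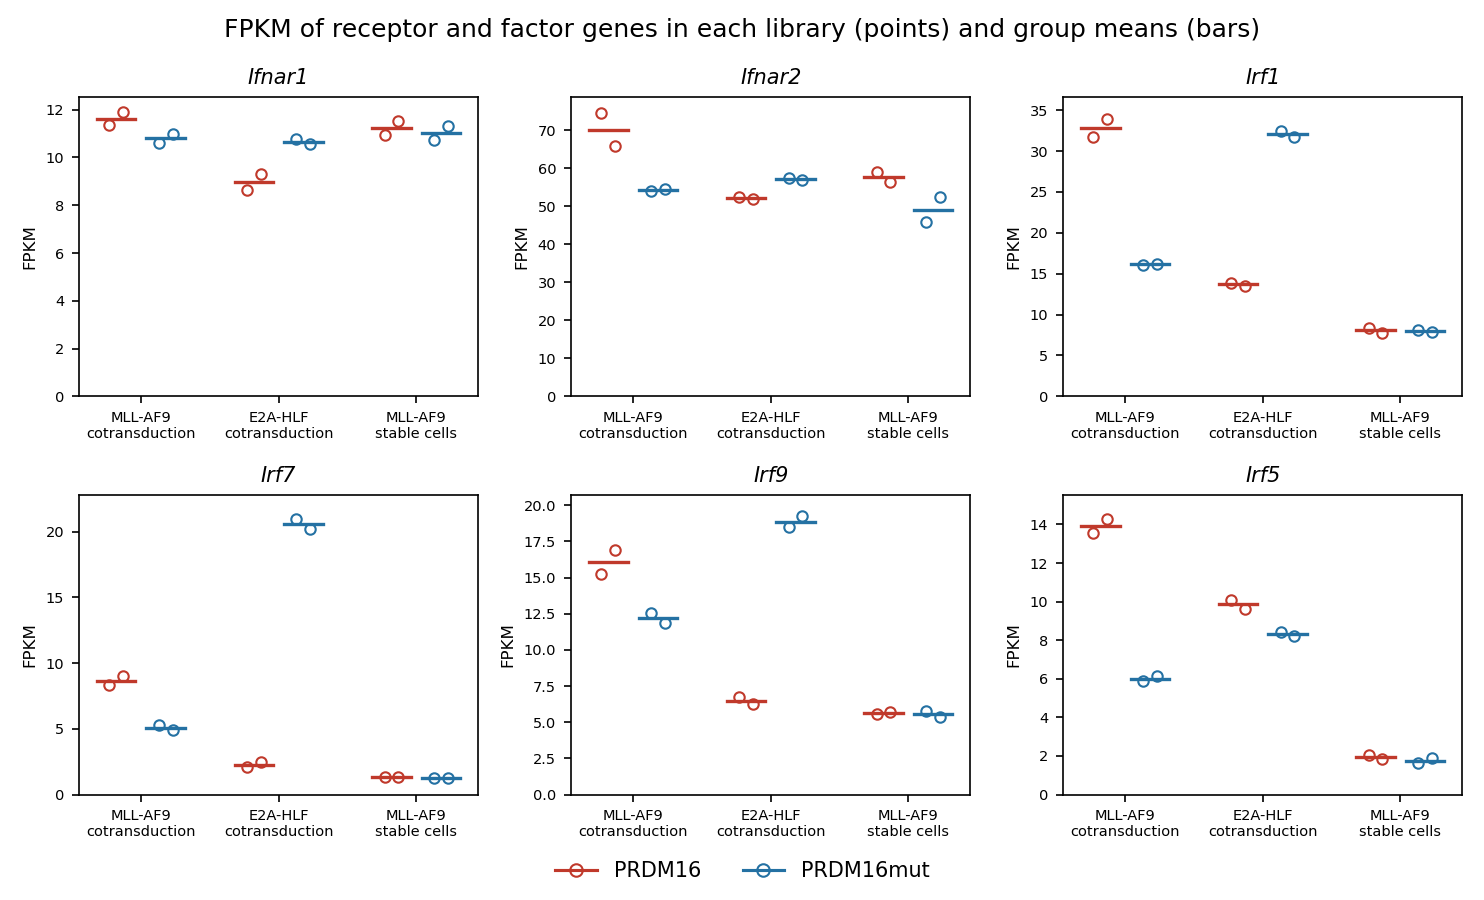
FPKM of the receptor genes Ifnar1 and Ifnar2 and of the factor genes Irf1, Irf7, Irf9 and Irf5 in each library (open points) with the group mean (bars), PRDM16 in red and PRDM16mut in blue; each vertical axis starts at 0. The receptor genes stay within a narrow range in every experiment, Irf1, Irf7 and Irf9 are higher with PRDM16 in the MLL-AF9 cotransduction and lower with it in the E2A-HLF cotransduction, and Irf5 is higher with PRDM16 in both.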

How the data were processed

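RNA was isolated with Trizol and Qiagen kits, and poly(A) libraries were made with TruSeq v2, per the labels' protocols. The deposited values are FPKM per gene, which the authors made with TopHat2 2.0.3, Bowtie2 2.0.0.7 and Cuffdiff on mm9, per the submitters' processing notes; the tables hold no counts, so depth is unknown. There is 1 table per experiment, with 4 libraries each, normalised apart, and all columns were mapped to samples by name. Each table was tested with limma 3.58.1 (R 4.3.3) on log2(FPKM + 1), eBayes with trend, two-sided, for genes of at least 1 FPKM in 2 or more of 4 libraries, with Benjamini-Hochberg adjustment over all genes tested and calls at adjusted p under 0.05. Fold changes on this scale understate low genes. Differences of effect came from 1 fit of all 12 libraries. The script was tested on simulated data.

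The 37 genes, their roles and the other lists were chosen with earlier results of these data known. Values per library are given for the 5 largest called changes in each comparison, for genes called in opposite directions, and for the 3 largest differences of effect per pair; other genes are given by mean, range or count, and further genes shown per library were chosen after their values were seen. Of the pathway lists, receptors, Irf1, Irf7, Irf9 and called changes of at least 1 on the log2 scale are named; a further gene that the rule names is not reported here. Irf2, Irf3 and the close copies were named after their values were seen. Alternatives were other pseudocounts and filters, quantile normalisation, rescaling to equal totals, no trend, a replicate block, a spread shared over all libraries, and leaving out each library; fits of 8 libraries were added after seeing the data. Promoters are from RefSeq's GRCm38.p6 table, with no coordinates moved between builds. They were joined by gene symbol or, where the symbol was absent, by an unambiguous RefSeq synonym.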

Additional observations from a re-analysis of the deposited data

Results flagged for a closer look

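How far the effect of PRDM16 against PRDM16mut differs from one experiment to another was tested with limma as a contrast of contrasts in all 12 libraries. The difference passed an adjusted p of 0.05 for many of the 27 interferon-stimulated genes that could be tested. Between the E2A-HLF and the MLL-AF9 cotransduction 26 differed, against 71.4% of all genes. The effect of Ifi27l2a differed by -5.73 (log2), that of Ube2l6 by -4.57 and that of Isg15 by -4.05. Between the E2A-HLF cells and the stable cells 25 differed, against 37% of all genes, with Ifi27l2a at -3.77, Isg15 at -2.78 and Ube2l6 at -2.55. Between the stable cells and the MLL-AF9 cotransduction 21 differed, against 64% of all genes, with Lgals3bp at -2.07, Ube2l6 at -2.02 and Ifi27l2a at -1.96. In each of these pairs the experiment varies together with the fusion gene, with the starting cells and drug selection, or with all of these, and these cannot be told apart. The PRDM16 and PRDM16mut groups of the MLL-AF9 cotransduction were also split in Rn45s and in Prdm16, as given above. That split enters every difference that involves this experiment, and its part was not tested.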

How the results depend on the processing

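No single gene's called change reversed under any alternative run. The median log2 fold change in the stable cells, 0.02, changed sign under quantile normalisation (-0.00590), rescaling (-0.00814) and without the first PRDM16mut library (leave-one-out range -0.0105 to 0.0368). There the 2 genes called higher became 0 without the filter, 1 under quantile normalisation, rescaling, no trend, the replicate block and the shared spread, and 0 without any 1 library. In the MLL-AF9 cotransduction the median was 0.68 without the filter and at FPKM of at least 5, 0.65 rescaled and 0.50 with the shared spread (27 genes), and 0.66 to 0.76 leaving out 1 library; genes called lower ranged from 2, without the second PRDM16mut library, to 4. In the E2A-HLF cells the median was -1.30 with pseudocount 0.1, -1.16 without the filter, -1.08 at FPKM of at least 5 and -1.0 with the shared spread, and the 1 gene called higher was not tested in the last of these or at FPKM of at least 5, leaving 0. At FPKM of at least 5, 14 genes could be tested for a difference of effect, and 13, 13 and 10 were called (E2A-HLF against MLL-AF9, E2A-HLF against stable, stable against MLL-AF9). Same-numbered libraries deviated together only weakly (r = 0.0670, 0.289 and 0.319 in the MLL-AF9, E2A-HLF and stable tables), so the numbers were not taken as pairs. With the replicate block, Ifitm3 in the stable cells had an adjusted p of 0.0581, Cxcl10 and Herc6 in the MLL-AF9 cotransduction were called (0.0195 and 0.0491), and Sp100 lost its difference between E2A-HLF and stable cells (0.0525), as it also did leaving out any of 6 of the 8 libraries (0.0526 to 0.0811). The difference of Samd9l between the cotransductions was lost rescaled (0.130) and without any 1 of 3 libraries (0.0518 to 0.0692). Rescaling moved the median of all genes by -0.10 in the MLL-AF9 cotransduction, and the share of calls that were higher went from 51.1% to 41.6%; in the stable cells it went from 66.0% to 34.1% rescaled and 50.7% under quantile normalisation. The share of all genes called in the stable cells was 6.36%, against 0.245% without the filter, 12.1% rescaled, 2.63% without the trend, 3.15% with the shared spread and 0.614% to 1.31% leaving out 1 library. Leaving out a library leaves a lone sample that is assumed to vary like the other group.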
